A study of Mus musculus with 54 samples.

Results

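The cerebellum of mice labelled RnaseH2B,Atm Nes-cre was compared with that of Control mice at postnatal day 28 (P28). The comparison uses 10 of the 54 libraries of the series, 5 of the double mutant and 5 controls, chosen by the genotype and age in their labels. A further 5 P28 libraries labelled RnaseH2B Nes-cre and 5 labelled Atm Nes-cre show where the double mutant also differed from each single genotype. All are libraries of poly-A mRNA from whole cerebellum. The labels do not give the Cre status of the controls, and they do not say that replicates came from separate animals, so that p values measure only the spread between libraries.

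RNase H2 is the nuclease that removes ribonucleotides built into DNA and cuts the RNA of RNA-DNA hybrids, and Rnaseh2b encodes a structural subunit of it. In people, inherited loss of its function causes Aicardi-Goutieres syndrome, a brain disease marked by a type I interferon response. Atm encodes the kinase that signals DNA double-strand breaks to p53 and to repair proteins, and its loss in people causes ataxia-telangiectasia, in which the cerebellum degenerates. Nes-cre is known to act in neural progenitors, so that neurons, astrocytes and oligodendrocytes inherit a deletion while microglia, blood vessels and meninges, which arise from other lineages, do not. Whole cerebellum therefore mixes cells of both kinds.

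Rnaseh2b and Atm were both lower in the double mutant, on the log2 scale of CPM, the count of a gene scaled to the depth of its library. Rnaseh2b stood at 2.85, 2.97, 2.74, 2.78 and 2.86 log2 CPM in control replicates 1 to 5 and at 0.95, 0.60, 1.18, 0.71 and 1.06 log2 CPM in double mutant replicates 1 to 5. The groups did not overlap, and Rnaseh2b fell by 1.94 on the log2 scale (SE 0.14), with n = 5 and 5 as in every comparison here (limma adjusted p = 9.34e-10). Against the RnaseH2B Nes-cre libraries its log2 difference was -0.22, which did not pass the test (limma adjusted p = 0.193).

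Atm stood at 4.79, 4.94, 4.82, 4.79 and 4.81 log2 CPM in the controls and at 3.97, 4.09, 4.10, 4.08 and 4.03 log2 CPM in the double mutant. Every double mutant library lay below every control, and Atm fell by 0.78 on the log2 scale (SE 0.065, limma adjusted p = 7.48e-09). The libraries labelled Atm had a mean Atm level of 4.79 log2 CPM, close to the control mean of 4.83, and the double mutant was lower than them (log2 difference -0.73, limma adjusted p = 1.41e-08). The transcript therefore did not separate the single Atm genotype from control, and directions drawn from those libraries rest on their label alone.

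**Figure D1:**
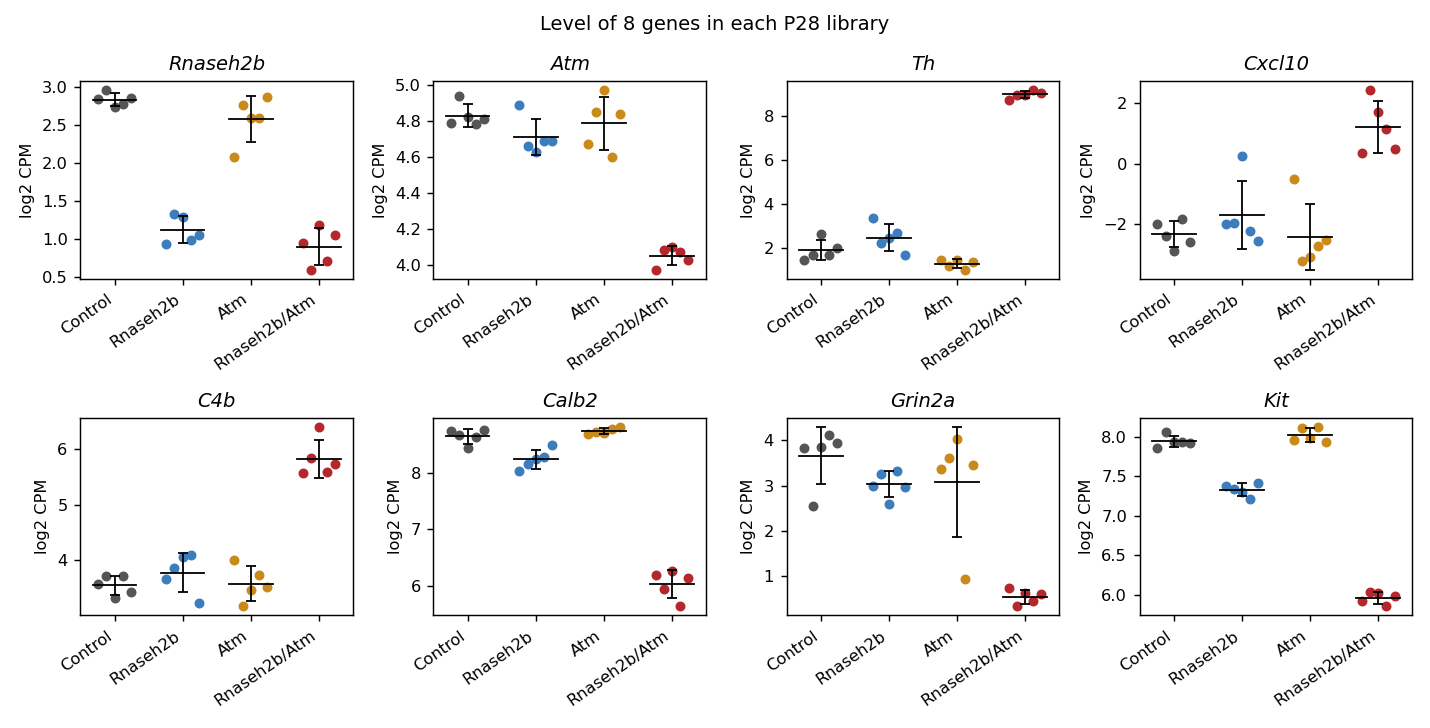
Level of 8 genes (log2 CPM, vertical axes) in the 5 libraries of each P28 group: points are libraries, the bar is the mean and the error bar the SD. In the double mutant Rnaseh2b, Atm, Calb2, Grin2a and Kit lie below the controls, and Th, Cxcl10 and C4b lie above them.

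The partners of Rnaseh2b in the enzyme went both ways. Rnaseh2a, the catalytic subunit, rose by 0.41 ± 0.043 log2 units (limma adjusted p = 1.06e-07). Rnaseh2c, the other structural subunit, stood at 5.30, 4.29, 5.48, 5.18 and 5.10 log2 CPM in the controls and at 4.28, 3.81, 3.88, 4.08 and 3.98 log2 CPM in the double mutant, and fell by 1.07 on the log2 scale (SE 0.23, limma adjusted p = 0.000455). All 5 double mutants were below the lowest control, replicate 2. Of 10 genes of ribonucleotide excision and RNA-DNA hybrids, these 3 included, 2 rose and 8 fell, where 31.5% of all 16530 genes tested rose and 32.1% fell.

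Some libraries stood apart in ways their genotypes do not name. The P28 libraries held 24.1 to 89.7 M reads in genes (M, mega), with 31.5 to 85.4 M in controls and 39.8 to 89.7 M in double mutants. Control replicate 2 had the lowest midbrain markers of the controls, as given below, and the lowest summed level of activated microglia markers. Apoe, the most abundant gene of that marker list, was also lowest in that library, at 9.04 log2 CPM against 9.91 to 9.95 log2 CPM in the other controls. Double mutant replicates 2 and 4 had lower summed levels of oligodendrocyte genes and higher ones of granule neuron genes than the other 3. Xist, a transcript of female cells, was above 5 log2 CPM in control replicates 1 and 2 and double mutant replicates 3, 4 and 5.

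The double mutant differed from control across most of the transcriptome that could be tested. Of 16530 genes tested, 10506 were called at a limma adjusted p below 0.05, or 63.6%: 5202 rose (31.5%) and 5304 fell (32.1%). Many differences were small: the median absolute log2 difference of called genes was 0.52, and 48.2% of them were under 0.5. Among called genes, 1305 were higher by at least 1 log2 unit and 777 lower by at least as much. Over all tested genes the median log2 difference was -0.02, with quartiles of -0.34 and 0.33, and gene lists are read here against those values and those shares.

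The comparisons with each single genotype share the double mutant libraries with the main one and are given beside it. Against the RnaseH2B Nes-cre libraries, 4123 genes were higher in the double mutant (24.9%) and 4065 lower (24.6%). Against the libraries labelled Atm, 4952 were higher (30.0%) and 5130 lower (31.0%).

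**Figure D2:**
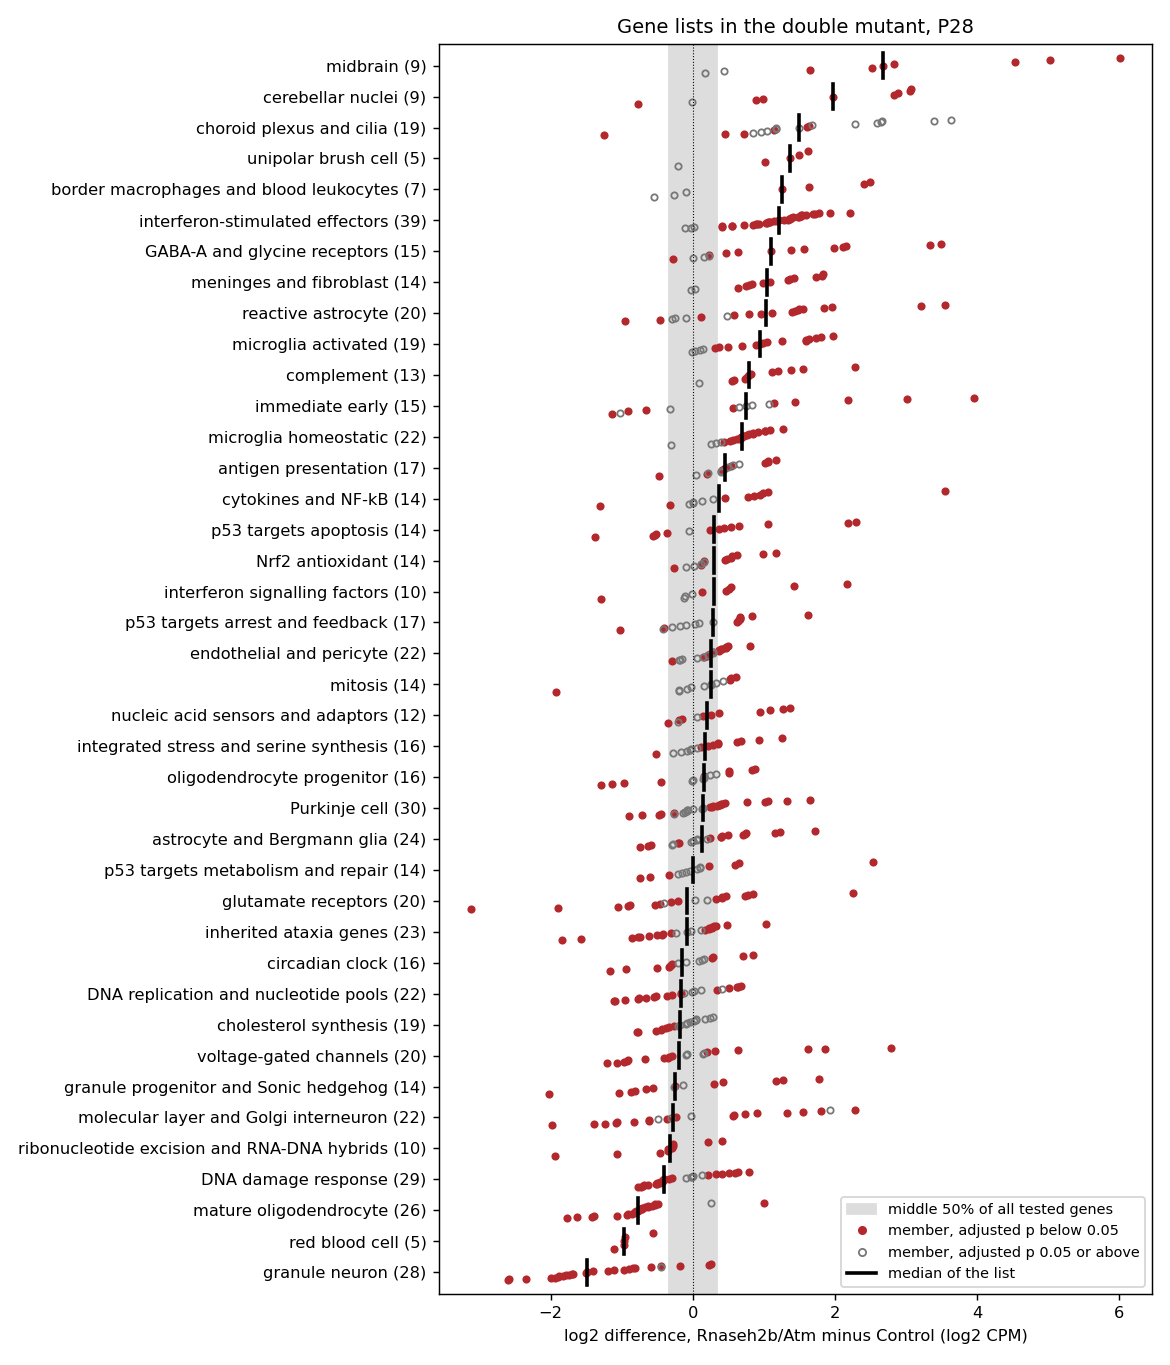
Log2 difference between double mutant and control (horizontal axis, log2 CPM) of each tested member of 40 gene lists (rows, number tested in parentheses). Filled points have a limma adjusted p below 0.05, open points do not, black bars are medians and the grey band spans the quartiles of all tested genes, -0.34 to 0.33. The granule neuron list has the lowest median, -1.49, and the midbrain list the highest, 2.67.

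Interferon-stimulated genes were higher in the double mutant nearly throughout. Type I interferon is a secreted alarm signal: sensors of foreign or misplaced nucleic acids switch it on, and its receptor activates transcription factors, Stat2 and Irf9 among them, that induce antiviral effectors. Of 39 tested effectors 36 rose and 0 fell, with a median log2 difference of 1.22 against -0.02 over all tested genes. In 29 of them every double mutant library lay above every control, which held for 23.5% of all tested genes. The summed effector level was 153 to 208 CPM in the controls and 290, 441, 657, 295 and 336 CPM in double mutant replicates 1 to 5, so that replicate 3 was highest, replicates 1 and 4 lowest, and the groups did not overlap. With the level of midbrain markers as a covariate, an alternative added after seeing the data, 21 effectors were higher and 0 lower. With a stricter filter on low values, under which fewer genes are tested, 22 were higher and 0 lower.

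Ifit2, an RNA-binding antiviral protein, stood at 1.99, 2.29, 1.83, 1.87 and 1.53 log2 CPM in the controls and at 3.53, 4.04, 4.41, 3.35 and 3.82 log2 CPM in the double mutant. It rose by 1.93 ± 0.22 log2 units with no overlap (limma adjusted p = 3.82e-07). Cmpk2, a mitochondrial nucleotide kinase, rose by 1.52 ± 0.14 log2 units, a 2.87-fold difference (limma adjusted p = 1.69e-08). Trim25, a ubiquitin ligase that promotes signalling by the RNA sensor RIG-I, rose by 1.35 ± 0.15 log2 units. Lgals3bp, a secreted glycoprotein, rose by 1.69 ± 0.22 log2 units, and its 6.02 log2 CPM in replicate 3 stood above the other 4 double mutants. Dtx3l, a ubiquitin ligase, and Ifi27l1 gave smaller rises of 1.04 ± 0.13 and 1.06 ± 0.13 log2 units.

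**Figure D3:**
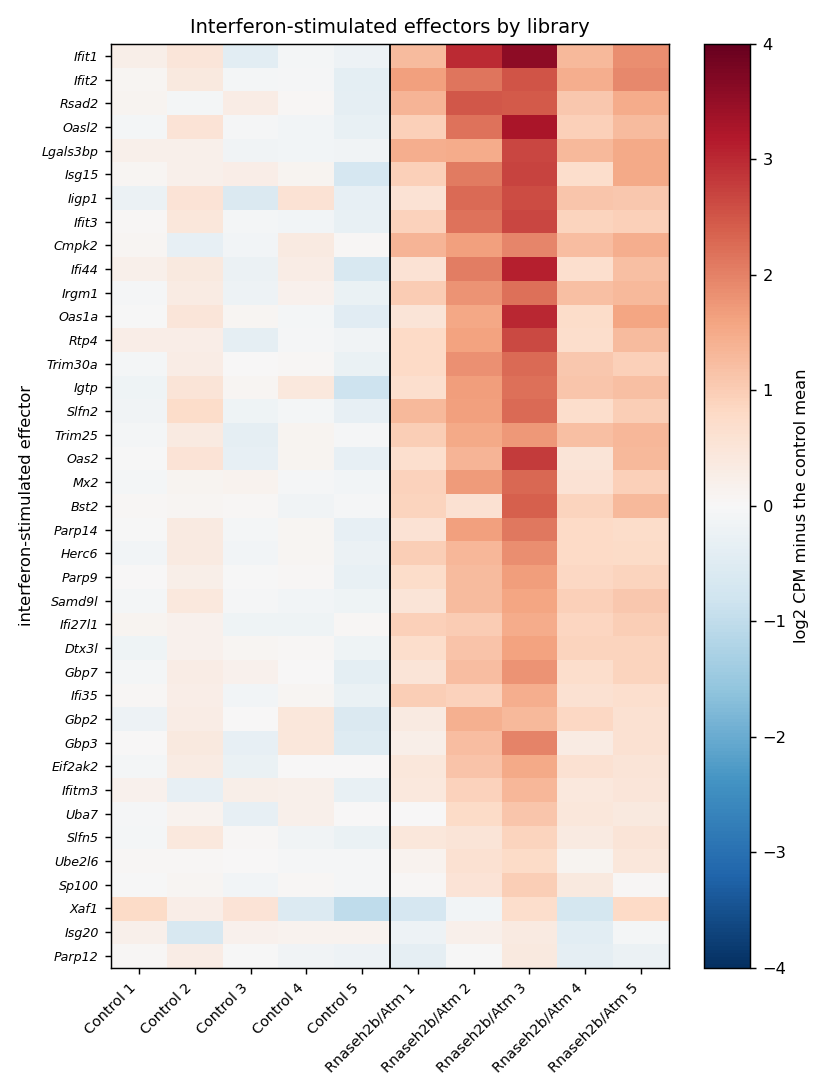
Level of 39 interferon-stimulated effectors (rows) in 5 control and 5 double mutant libraries (columns), as log2 CPM minus the mean of the controls, on a colour scale from -4 (blue) to 4 (red). Double mutant replicate 3 is the reddest column for most effectors, and Xaf1, Isg20 and Parp12 are the 3 that were not called.

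Effectors were also higher than in each single genotype. Against the RnaseH2B Nes-cre libraries 28 of 39 were higher and 0 lower, with a median of 0.85. Against the libraries labelled Atm 37 were higher and 0 lower, with a median of 1.26. The RnaseH2B Nes-cre libraries had effector sums of 199, 196, 303, 199 and 196 CPM. Their highest library lay above the lowest double mutants, so those groups overlapped in this sum.

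Promoters of interferon-stimulated genes are known to hold a response element bound by these factors. Its core letters, GAAA, any 2 bases and GAAA again, were searched on both strands, with overlapping matches allowed, in the 250 bases before the start of each gene in the RefSeq promoter table of build GRCm38.p6. They were present in 13 of 32 tested effectors that have a promoter in the table (40.6%), against 318 of 10596 tested genes (3%) and 936 of 27025 genes in the table (3.46%). The promoters of Isg15, Ifit1, Bst2 and Irgm1 are shown for their matches, picked after values were seen, and that of Stat2 because it holds a match and the gene fell. They run 5′ to 3′ on the strand of the gene, in lower case with the matches in capitals.
Isg15, chr4:156200819-156201068, minus strand: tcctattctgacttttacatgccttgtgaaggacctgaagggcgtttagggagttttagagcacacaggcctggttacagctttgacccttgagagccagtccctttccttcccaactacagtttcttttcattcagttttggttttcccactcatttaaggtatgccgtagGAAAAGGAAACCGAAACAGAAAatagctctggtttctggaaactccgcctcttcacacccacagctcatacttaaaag
Ifit1, chr19:34640639-34640888, plus strand: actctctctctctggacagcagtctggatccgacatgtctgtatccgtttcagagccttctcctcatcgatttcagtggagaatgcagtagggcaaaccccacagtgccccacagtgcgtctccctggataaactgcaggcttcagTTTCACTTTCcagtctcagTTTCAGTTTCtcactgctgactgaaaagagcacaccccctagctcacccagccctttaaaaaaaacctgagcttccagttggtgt
Bst2, chr8:71537473-71537722, minus strand: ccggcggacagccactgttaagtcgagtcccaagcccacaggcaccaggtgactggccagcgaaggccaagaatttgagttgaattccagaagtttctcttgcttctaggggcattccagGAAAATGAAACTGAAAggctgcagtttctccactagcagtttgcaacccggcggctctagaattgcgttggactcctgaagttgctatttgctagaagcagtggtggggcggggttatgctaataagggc
Irgm1, chr11:48871421-48871670, minus strand: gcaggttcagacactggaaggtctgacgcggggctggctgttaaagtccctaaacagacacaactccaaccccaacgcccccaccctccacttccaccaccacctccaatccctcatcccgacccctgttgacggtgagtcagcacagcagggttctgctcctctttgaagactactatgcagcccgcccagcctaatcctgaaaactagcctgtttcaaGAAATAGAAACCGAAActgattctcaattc
Stat2, chr10:128270248-128270497, plus strand: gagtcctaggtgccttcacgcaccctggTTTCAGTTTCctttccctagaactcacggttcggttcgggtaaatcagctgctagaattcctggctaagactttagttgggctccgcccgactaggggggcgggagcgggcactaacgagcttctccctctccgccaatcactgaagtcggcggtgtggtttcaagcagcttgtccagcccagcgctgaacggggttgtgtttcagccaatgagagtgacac
Isg15 held 3 overlapping matches, which begin 78 to 66 bases before its start. Ifit1 held 2 matches, 104 and 85 bases before its start, and Stat2 held 1. Among tested effectors the median log2 difference was 1.39 for the 13 with the motif and 1.04 for the 19 without it. A match describes letters, not a bound site.

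Isg15, a ubiquitin-like modifier, stood at 0.41, 0.55, 0.60, 0.45 and -0.33 log2 CPM in the controls and at 1.29, 2.42, 3.04, 1.03 and 1.85 log2 CPM in the double mutant. The groups did not overlap, and Isg15 rose by 1.59 ± 0.32 log2 units (limma adjusted p = 0.000238). Ifit1, which binds viral RNA caps, stood at 1.11, 1.37, 0.47, 0.81 and 0.68 log2 CPM in the controls and at 2.15, 3.87, 4.48, 2.20 and 2.76 log2 CPM in the double mutant and rose by 2.21 ± 0.43 log2 units, the largest rise on the effector list. Bst2, which tethers budding virus, and Irgm1, an immunity-related GTPase, rose by 1.22 ± 0.30 and 1.5 ± 0.26 log2 units. Bst2 was not called with the midbrain covariate, where its difference was about as large (log2 difference 1.004, adjusted p = 0.111).

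Not all signalling factors rose: of 10 tested, 6 rose and 1 fell, and with the midbrain covariate 2 were higher and 1 lower. Stat2, a transcription factor that interferon activates, stood at 7.12, 7.32, 7.04, 6.99 and 7.13 log2 CPM in the controls and at 5.58, 6.09, 5.99, 5.87 and 5.63 log2 CPM in the double mutant. It fell by 1.29 on the log2 scale (SE 0.09) with no overlap (limma adjusted p = 7.58e-10). It was lower than in the RnaseH2B Nes-cre libraries as well (log2 difference -1.04, limma adjusted p = 3.16e-08) and than in those labelled Atm (log2 difference -1.28, limma adjusted p = 8e-10).

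Usp18, which switches off the interferon receptor and is itself induced by interferon, rose by 2.17 ± 0.38 log2 units (limma adjusted p = 6.01e-05). Irf7, the transcription factor that amplifies interferon production, rose by 1.42 ± 0.36 log2 units. Irf9, the DNA-binding partner of STAT2, rose by 0.50 ± 0.15 log2 units with groups that overlapped. Neither was called with the midbrain covariate, in which Irf7 had a log2 difference of 1.08 (adjusted p = 0.153) and Irf9 one of 0.54 (adjusted p = 0.0999). The receptor chain Ifnar1 did not pass the test (log2 difference -0.0096 ± 0.068, limma adjusted p = 0.911).

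Among 12 tested nucleic acid sensors and their adaptors 7 rose and 3 fell, with a median of 0.20, and with the midbrain covariate 4 were higher and 0 lower. Ddx58, which encodes RIG-I, went from 1.98 to 2.33 log2 CPM in the controls to 3.06 to 4.34 log2 CPM in the double mutant and rose by 1.36 ± 0.21 log2 units (limma adjusted p = 1.18e-05). Ifih1, the sensor of long double-stranded RNA, rose by 1.09 ± 0.20 log2 units. The endosomal RNA receptors Tlr3 and Tlr7 rose by 0.94 ± 0.14 and 1.27 ± 0.22 log2 units. None of these 4 overlapped between the groups.

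Antigen presentation genes changed in part. Of 17 tested 9 rose and 1 fell, and with the midbrain covariate 0 were higher and 1 lower. Tapbp, which loads peptides onto class I molecules, rose by 0.46 ± 0.087 log2 units, and the class II genes Cd74 and H2-Aa rose by 1.02 ± 0.29 and 1.06 ± 0.30 log2 units. With that covariate their log2 differences were 0.32, 0.72 and 1.12 (adjusted p of 0.0753, 0.242 and 0.0831). H2-Aa was also not called without double mutant replicates 2 and 4 (log2 difference 0.77, adjusted p = 0.0535). H2-D1, a class I heavy chain, went from 6.83 to 7.33 log2 CPM in the controls to 6.33 to 6.80 log2 CPM in the double mutant and fell by 0.48 on the log2 scale (SE 0.11, limma adjusted p = 0.000629); reads of near-identical class I genes may be split between them. B2m, the class I light chain, did not pass the test (log2 difference 0.21 ± 0.19, limma adjusted p = 0.331).

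Complement genes were higher as a group: of 13 tested 12 rose and 0 fell, with a median of 0.79. C4b, whose product tags targets for removal, stood at 3.56, 3.71, 3.31, 3.71 and 3.43 log2 CPM in the controls and at 5.57, 5.84, 6.41, 5.58 and 5.74 log2 CPM in the double mutant. This was a 4.87-fold rise with no overlap (log2 difference 2.28 ± 0.18, limma adjusted p = 3.12e-09), and replicate 3 was again the highest. The regulator Serping1 rose by 0.78 ± 0.086 log2 units, and C1qb, which microglia make, rose by 0.82 ± 0.12 log2 units. Summed over the list, levels were 90.4 to 106 CPM in the controls and 200 to 258 CPM in the double mutant.

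Markers of microglia, the resident macrophages of the brain, were higher in the double mutant. Of 22 tested homeostatic markers 18 rose and 0 fell, with a median of 0.69. Their sum was 196, 190, 192, 202 and 192 CPM in the controls and 319, 299, 366, 295 and 330 CPM in the double mutant, with no overlap. In whole tissue, a change in the number of cells of a type and a change in RNA per cell cannot be told apart. The sum was 193 to 231 CPM in the RnaseH2B Nes-cre libraries and 172 to 205 CPM in those labelled Atm, both below every double mutant.

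P2ry12, a purine receptor known to be lost when microglia become activated, stood at 2.95, 2.86, 3.003, 2.98 and 3.12 log2 CPM in the controls and at 3.72, 3.84, 4.02, 3.74 and 3.82 log2 CPM in the double mutant. It rose by 0.84 ± 0.089 log2 units with no overlap (limma adjusted p = 1.38e-07). The protease Ctss and the growth factor receptor Csf1r rose by 1.02 ± 0.11 and 0.62 ± 0.087 log2 units.

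Of 19 tested markers of activated microglia 15 rose and 0 fell, with a median of 0.94. Fcgr2b, an antibody receptor, rose by 1.59 ± 0.12 log2 units (limma adjusted p = 2.3e-09), and Lpl, a lipase of lipid-processing microglia, rose by 1.81 ± 0.16 log2 units. Axl, a receptor for dying cells, and Ctsb, a lysosomal protease, gave smaller rises of 0.50 ± 0.065 and 0.37 ± 0.035 log2 units. Apoe, the lipid carrier that astrocytes also make, did not pass the test (log2 difference 0.10 ± 0.26). It stood at 9.91, 9.04, 9.94, 9.91 and 9.95 log2 CPM in the controls and at 10.04, 9.25, 10.07, 9.92 and 9.96 log2 CPM in the double mutant, with replicate 2 the lowest of both groups.

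Of 14 cytokine and NF-kB genes 7 rose and 2 fell. Cxcl10, a T cell attractant induced by interferon, stood at -1.97, -2.39, -2.87, -1.83 and -2.58 log2 CPM in the controls and at 0.36, 2.42, 1.69, 1.14 and 0.48 log2 CPM in the double mutant. The groups did not overlap, and Cxcl10 was 11.7-fold higher (log2 difference 3.55 ± 0.55, limma adjusted p = 1.47e-05). Every control lay below 1 CPM, the level of the filter on low values, and every double mutant above it. The fold is thus a fitted value for a gene near the floor in the controls. On the scale of FPKM plus 1 the log2 difference of Cxcl10 was 1.21. Relb, a subunit of NF-kB, and Il18, an inflammasome cytokine, rose by 0.99 ± 0.11 and 0.77 ± 0.10 log2 units. Cxcl12, a chemokine made in the healthy brain too, rose by 0.46 ± 0.11 log2 units with groups that overlapped, and by less without double mutant replicates 2 and 4 (log2 difference 0.20, adjusted p = 0.00865).

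Markers of border macrophages, which live in meninges and around vessels, were listed with markers of blood leukocytes, and 7 of the 20 passed the filter on low values. Of these 4 rose and 0 fell. Cd163, a scavenger receptor for haemoglobin, stood at 0.68, 0.84, 0.66, 0.61 and 0.80 log2 CPM in the controls and at 3.28, 3.37, 3.23, 3.16 and 3.02 log2 CPM in the double mutant. That was a 5.63-fold rise with no overlap (log2 difference 2.49 ± 0.19, limma adjusted p = 2.66e-09). Lyve1 and Mrc1, receptors for hyaluronan and for mannose, rose by 2.41 ± 0.33 and 1.26 ± 0.17 log2 units. Meninges and fibroblast markers were also higher, as given below, and their part in this result was not tested.

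Markers of reactive astrocytes were mostly higher: of 20 tested 14 rose and 2 fell, with a median of 1.03. Gfap, an intermediate filament of astrocytes, stood at 7.38, 6.63, 7.48, 7.15 and 6.89 log2 CPM in the controls and at 8.85, 9.20, 8.71, 9.58 and 8.99 log2 CPM in the double mutant. It was 3.89-fold higher with no overlap (log2 difference 1.96 ± 0.22, limma adjusted p = 2.84e-07). The copper-carrying oxidase Cp, the membrane protein Emp1 and Aspg rose by 1.40 ± 0.071, 1.85 ± 0.17 and 1.49 ± 0.13 log2 units. Vim, another filament of reactive astrocytes, did not pass the test (log2 difference -0.30 ± 0.13, limma adjusted p = 0.0562). With only both compared groups in the fit the lower level of Vim was called (adjusted p = 0.00943), as it was without control replicate 2 (adjusted p = 0.0271), without double mutant replicate 1 (adjusted p = 0.0389), with the replicate block and with the midbrain covariate (log2 difference -0.70, adjusted p = 0.00869).

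General markers of astrocytes and of Bergmann glia, the radial glia of the cerebellar cortex, went both ways: of 24 tested 11 rose and 5 fell. Kcnj10, their potassium channel, went from 7.78 to 8.04 log2 CPM in the controls to 9.43 to 9.73 log2 CPM in the double mutant and rose by 1.72 ± 0.085 log2 units (limma adjusted p = 9.37e-12). Slc1a2, a glutamate transporter, and Glul, which turns glutamate into glutamine, rose by 0.74 ± 0.068 and 0.71 ± 0.083 log2 units. S100b, a calcium-binding protein of the same cells, fell by 0.63 on the log2 scale (SE 0.067).

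Granule neuron genes were mostly lower in the double mutant. Granule neurons are the small excitatory neurons that make up most cells of the cerebellum, and their parallel fibres drive Purkinje cells. Of 28 tested genes 25 fell and 2 rose, with a median log2 difference of -1.49, and in 24 of them every double mutant lay below every control, as in 22.2% of all tested genes. Their summed level was 14257, 16120, 14439, 15182 and 15887 CPM in the controls and 6371, 9510, 5843, 9006 and 5707 CPM in the double mutant. Replicates 2 and 4 kept more than the other 3, and without both 25 genes were lower and 0 higher. The sum was 12415 to 14677 CPM in the RnaseH2B Nes-cre libraries and 14732 to 16879 CPM in those labelled Atm, and the double mutant had 25 genes lower than the first and 25 lower than the second, with medians of -1.22 and -1.46.

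Calb2, which encodes the calcium buffer calretinin, stood at 8.74, 8.65, 8.42, 8.63 and 8.75 log2 CPM in the controls and at 6.20, 5.95, 6.27, 5.65 and 6.14 log2 CPM in the double mutant. Calb2 fell by 2.60 on the log2 scale (SE 0.10), with no overlap (limma adjusted p = 2.6e-13). Its difference from the RnaseH2B Nes-cre libraries was nearly as large (log2 difference -2.19, limma adjusted p = 6.27e-12). Grin2c, the NMDA receptor subunit of mature granule neurons, fell by 2.59 on the log2 scale (SE 0.15). Gabrd, a subunit of their extrasynaptic GABA-A receptors, and Reln, the secreted guide of neuron position, had log2 differences of -1.99 ± 0.15 and -1.40 ± 0.085. Cbln3, which joins the synapse organiser Cbln1, stood at 10.56, 10.84, 10.52, 10.67 and 10.77 log2 CPM in the controls and at 8.76, 9.58, 8.56, 9.53 and 8.52 log2 CPM in the double mutant, lowest in replicates 1, 3 and 5.

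Hedgehog signalling drives division of granule cell progenitors in early postnatal life, and of 14 genes of progenitors and of this pathway 5 rose and 7 fell; with the midbrain covariate 4 were higher and 3 lower. Shh, the ligand, which Purkinje cells make, rose by 1.17 ± 0.10 log2 units (limma adjusted p = 7.86e-09). Gli1, a transcription factor and target of the pathway, fell by 0.87 on the log2 scale (SE 0.083, limma adjusted p = 4.15e-08). Ccnd2, a cyclin of dividing progenitors, rose by 1.77 ± 0.16 log2 units.

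**Figure D4:**
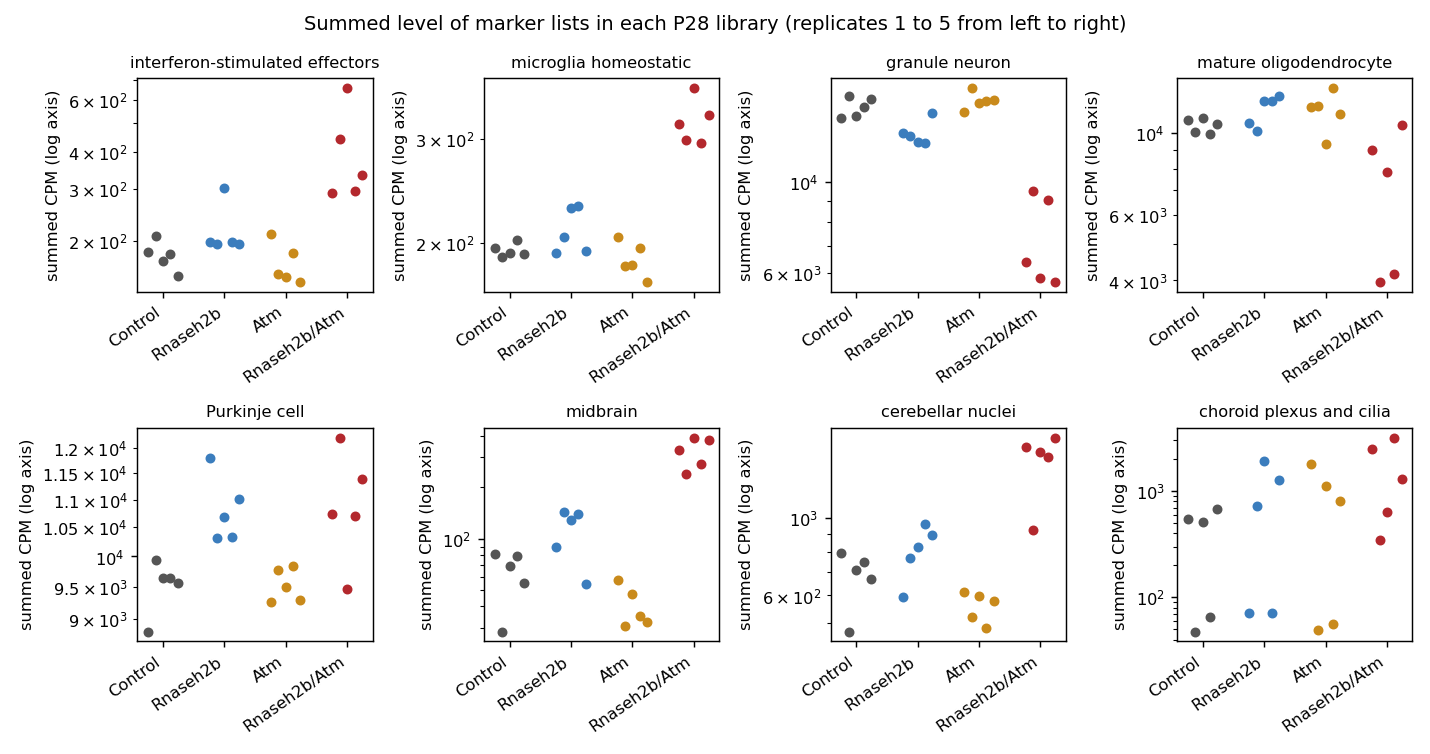
Summed CPM of 8 marker lists (vertical axes, log scale) in each of the 20 P28 libraries (points, replicates 1 to 5 from left to right within a group). Effector, homeostatic microglia, midbrain and cerebellar nuclei sums lie above every control in all 5 double mutants and granule neuron sums below, whereas the oligodendrocyte sum is low chiefly in double mutant replicates 2 and 4.

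Several large falls were in genes outside the lists. Ldoc1, a small leucine zipper protein, stood at 4.10, 4.14, 4.28, 3.90 and 4.31 log2 CPM in the controls and at 0.82, 0.52, -0.39, 0.39 and 0.17 log2 CPM in the double mutant (log2 difference -3.85 ± 0.21, limma adjusted p = 2.89e-11). Car9 and Car4, membrane carbonic anhydrases, had log2 differences of -3.60 ± 0.14 and -3.18 ± 0.11. Sla, an adaptor of receptor signalling, went from 5.24 to 5.44 log2 CPM in controls to 1.72 to 2.27 log2 CPM in the double mutant. With Kit it had the smallest limma adjusted p of the genes named here, 1.58e-15. Trim67, a ligase of neurons, also had one of the smallest (log2 difference -1.81 ± 0.055, adjusted p = 1.69e-14).

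Ntn1, a guidance cue for axons, and its receptor Unc5b had log2 differences of -2.44 ± 0.079 and -2.10 ± 0.073. The matrix proteins Emilin3 and Svep1 had log2 differences of -3.06 ± 0.30 and -2.64 ± 0.091, the transcription factor Tlx3 -2.98 ± 0.44 and the hexokinase-like Hkdc1 -2.99 ± 0.12. Rec8, a subunit of meiotic cohesin, stood at 4.63, 3.63, 4.70, 3.93 and 3.99 log2 CPM in the controls and at -0.60, 2.61, -0.58, 3.15 and -0.19 log2 CPM in the double mutant. Replicates 2 and 4 again stood well above the other 3.

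Purkinje cells are the output neurons of the cerebellar cortex, and their markers were not lower as a group: of 30 tested 14 rose and 5 fell, with a median of 0.15. CPM is a share of each library, so that a fall in abundant transcripts raises the share of all others. Car8, a gene nearly specific to these cells in the cerebellum, did not pass the test (log2 difference 0.00017 ± 0.10, limma adjusted p = 0.999). Calb1, their calcium buffer, rose by 0.41 ± 0.09 log2 units with groups that overlapped. Nefh, a neurofilament, and Foxp2, a transcription factor, rose by 1.32 ± 0.077 and 1.65 ± 0.18 log2 units. Log2 differences on the list ran from -0.89 to 1.65, the latter that of Foxp2. The list summed to 8816 to 9949 CPM in the controls and 9470 to 12200 CPM in the double mutant, so that the groups overlapped. In the RnaseH2B Nes-cre libraries the sum was 10310 to 11790 CPM. Against those libraries 7 Purkinje markers were higher and 6 lower.

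Th makes the precursor of dopamine and is known to persist in Purkinje cells of several ataxic mouse mutants. It had the largest rise of the genes named here. It stood at 1.48, 1.68, 2.64, 1.70 and 2.002 log2 CPM in the controls and at 8.73, 8.98, 8.99, 9.20 and 9.07 log2 CPM in the double mutant. All 5 double mutants lay far above the highest control, replicate 3, and the difference was 137-fold (log2 difference 7.10 ± 0.23, limma adjusted p = 3.53e-14). Th was also higher than in the RnaseH2B Nes-cre libraries (log2 difference 6.51, limma adjusted p = 2.65e-13) and in those labelled Atm (log2 difference 7.70, limma adjusted p = 1.51e-14). On the deposited FPKM scale, which divides by transcript length, its mean level was 1.63 in the controls and 219 in the double mutant.

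Markers of inhibitory interneurons went both ways, with 8 of 22 rising and 10 falling, and their sums overlapped (3018 to 3123 CPM in the controls, 2903 to 3204 CPM in the double mutant). Kit, a receptor kinase of molecular layer interneurons, stood at 7.86, 8.06, 7.94, 7.94 and 7.92 log2 CPM in the controls and at 5.93, 6.04, 6.02, 5.85 and 5.98 log2 CPM in the double mutant. It fell by 1.98 on the log2 scale (SE 0.052), with no overlap, and was lower than in the RnaseH2B Nes-cre libraries (log2 difference -1.37) and in those labelled Atm (log2 difference -2.06). Prkcd, a protein kinase, had a log2 difference of -1.08 ± 0.059.

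Pvalb, a calcium buffer of Purkinje cells and interneurons, had a log2 difference of -0.23 ± 0.072, which was not called after quantile normalization (log2 difference -0.12, adjusted p = 0.171) or with the midbrain covariate (log2 difference -0.083, adjusted p = 0.571). Gad1 and Gad2, the enzymes that make GABA, rose by 0.56 ± 0.044 and 1.55 ± 0.10 log2 units. Of 5 tested markers of unipolar brush cells, excitatory interneurons of the granular layer, 4 rose and 0 fell, and with the midbrain covariate 2 were higher. Their sums overlapped, at 31.13 to 67.07 CPM in the controls and 51.05 to 64.45 CPM in the double mutant. Among these markers the transcription factors Otx2 and Lmx1a rose by 1.01 ± 0.15 and 1.36 ± 0.31 log2 units. Eomes, the best known marker of these cells, did not pass the test (log2 difference -0.22 ± 0.29, limma adjusted p = 0.535). With that covariate Lmx1a was not called (log2 difference 1.01, adjusted p = 0.117).

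Of 15 GABA-A and glycine receptor subunits 11 rose and 1 fell, with a median of 1.10. Gabra5 and Gabra3 rose by 3.33 ± 0.36 and 2.12 ± 0.15 log2 units, and Gabrg1 and the glycine receptor subunit Glra2 by 1.38 ± 0.11 and 1.57 ± 0.16.

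Glutamate receptors split, with 8 of 20 rising and 9 falling. Grin2a, an NMDA receptor subunit, stood at 3.84, 2.56, 3.85, 4.13 and 3.95 log2 CPM in the controls and at 0.73, 0.33, 0.63, 0.46 and 0.60 log2 CPM in the double mutant (log2 difference -3.11 ± 0.41, limma adjusted p = 2.35e-06). Control replicate 2 was the low control, still above every double mutant. Grm4, a presynaptic receptor of parallel fibres, and Grik2, a kainate receptor, had log2 differences of -1.90 ± 0.18 and -0.91 ± 0.10, and the AMPA receptor Gria2 did not pass the test (0.035 ± 0.073).

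Of 20 voltage-gated channel genes 6 rose and 10 fell: the sodium channel subunit Scn4b rose by 1.86 ± 0.082 log2 units, and Kcnc1, a potassium channel of fast-firing neurons, fell by 1.21 on the log2 scale (SE 0.075). Of 23 inherited ataxia genes 9 rose and 10 fell, and Cacna1a, the P/Q-type calcium channel, fell by 0.85 on the log2 scale (SE 0.08, limma adjusted p = 3.08e-08).

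Midbrain neurons lie next to the cerebellum, and their markers were higher in every double mutant. The 9 tested markers of 12 summed to 81.4, 28.4, 69.0, 79.6 and 54.6 CPM in the controls and to 330, 240, 391, 276 and 379 CPM in the double mutant, and 7 rose and 0 fell, with a median log2 difference of 2.67. The sum was 53.9 to 143 CPM in the RnaseH2B Nes-cre libraries and 30.9 to 57.2 CPM in those labelled Atm. Pax7, a transcription factor of the dorsal midbrain, stood at 0.13, -5.37, -2.31, -1.18 and -3.66 log2 CPM in the controls and at 3.73, 3.33, 4.31, 2.54 and 3.75 log2 CPM in the double mutant, lowest in control replicate 2. Its log2 difference of 6.01 ± 1.12 is a fitted value for a gene near the floor in some controls (limma adjusted p = 0.000123).

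Pou4f1 and Meis2, transcription factors, had log2 differences of 5.02 ± 0.69 and 2.67 ± 0.49, and the vesicular glutamate transporter Slc17a6 rose by 2.83 ± 0.33 log2 units. Tal1 and Lef1, transcription factors too, rose by 2.52 ± 0.33 and 1.64 ± 0.15 log2 units. With the level of these markers as a covariate 3 of them were higher and 1 lower, Pou4f1 had a log2 difference of 1.35 (adjusted p = 0.0695), Meis2 of 0.065 (adjusted p = 0.911) and Pax7 of -0.46 (adjusted p = 0.565). That covariate is the mean of the same tested markers, so that their differences in this fit cancel out on average whatever the data. For these markers the fit is therefore no test of their rise. Markers of the medulla and pons summed to 0.266 to 1.46 CPM over all libraries, and none passed the filter.

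Markers of the cerebellar nuclei, the deep output neurons, were also higher: of 9 tested 7 rose and 1 fell, and their sum was 795, 473, 712, 747 and 669 CPM in the controls and 1599, 923, 1547, 1495 and 1693 CPM in the double mutant. Lmo3, a transcription cofactor, rose by 3.06 ± 0.28 log2 units, and Spp1, a secreted protein that activated microglia also make, rose by 1.98 ± 0.18 log2 units. Slc17a6 is on this list and on the midbrain list, so that the 2 results are not separate for that gene. With the midbrain covariate, of which Slc17a6 is itself part, 4 were higher and 0 lower.

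Several of the largest rises lost their call, or changed sign, with the level of midbrain markers as a covariate. Tacr1, the substance P receptor, stood at 0.58, -4.20, -0.25, 0.52 and -1.0 log2 CPM in the controls and at 3.68, 2.85, 4.04, 2.95 and 3.89 log2 CPM in the double mutant, lowest in control replicate 2, as the midbrain markers were. Dlk1, a membrane protein related to Notch ligands, Dgkk, a lipid kinase, Fibcd1, an acetyl-group receptor, and Col25a1, a membrane collagen, had log2 differences of 4.56 ± 0.79, 4.02 ± 0.64, 3.67 ± 0.56 and 3.65 ± 0.46. With the midbrain covariate Dlk1, Dgkk and Fibcd1 were not called (log2 differences of 1.14, 0.34 and 0.37, adjusted p of 0.337, 0.481 and 0.285), Col25a1 was (log2 difference 1.38, adjusted p = 0.0247), and Tacr1 turned to a log2 difference of -0.54 (adjusted p = 0.474). Other genes stayed called in that fit with log2 differences smaller by over 1.5 times: 1.46 for Gabra5, 1.94 for Lmo3, 1.21 for Slc17a6, 1.05 for Gfap, 1.04 for Glra2, 0.77 for Tal1, 0.73 for Foxp2, 0.67 for Otx2, 0.50 for C1qb, 0.46 for Glul and 0.34 for Csf1r. Rnaseh2c (log2 difference -1.86), Hbb-b1 (-1.56) and Calb1 (0.78) had larger ones. Slc17a6 and Tal1 are themselves part of the covariate. In that fit 8383 genes were called over all; the covariate itself differs between the groups.

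Choroid plexus markers varied within every group. The 19 tested markers summed to 550, 47.5, 511, 65.4 and 681 CPM in the controls and to 2486, 347, 642, 3167 and 1287 CPM in the double mutant, and ranged up to 1899 CPM in the RnaseH2B Nes-cre libraries and 1789 CPM in those labelled Atm. Of them 5 rose and 1 fell with a median of 1.49. With double mutant replicate 2 left out, 11 were higher and 1 lower; with the midbrain covariate 1 was higher and 1 lower. The count of higher markers was 13 with both compared groups alone in the fit, 12 with the replicate block, 12 with voom on recovered reads and 10 on the log2 scale of FPKM plus 1. Ttr, their most abundant transcript, did not pass the test (log2 difference 3.64 ± 1.85, limma adjusted p = 0.0928), though it was called when only both compared groups were fitted (adjusted p = 0.0483).

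Meninges and fibroblast markers were steadier: of 14 tested 12 rose and 0 fell, with a median of 1.04 and sums of 747 to 1284 CPM in the controls and 1724 to 2191 CPM in the double mutant. Col3a1 and Dcn, matrix proteins of fibroblasts, rose by 1.82 ± 0.091 and 1.42 ± 0.092 log2 units, and the growth factor Igf2 rose by 1.74 ± 0.093 log2 units. Vessel and pericyte markers were higher by less: 13 of 22 rose and 1 fell, with a median of 0.26, and Vtn, Flt1 and Vwf rose by 0.49 ± 0.057, 0.37 ± 0.059 and 0.80 ± 0.11 log2 units.

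Myelin genes were low chiefly in 2 of the 5 double mutants. Of 26 tested genes of mature oligodendrocytes 24 fell and 1 rose, with a median of -0.77. Their sum was 9910 to 10924 CPM in the controls and 8997, 3960, 7834, 4171 and 10483 CPM in the double mutant, so that replicate 5 lay within the range of the controls. Without replicates 2 and 4, an alternative added after seeing the data, 9 were lower and 2 higher; with the midbrain covariate 11 were lower and 1 higher. Mbp, the myelin basic protein, stood at 12.12, 11.93, 12.08, 11.998 and 12.11 log2 CPM in the controls and at 11.77, 10.24, 11.55, 10.62 and 11.93 log2 CPM in the double mutant (log2 difference -0.83 ± 0.23, limma adjusted p = 0.00408). The highest double mutant, replicate 5, lay next to the lowest control. Without replicates 2 and 4 the difference of Mbp was smaller (log2 difference -0.30, adjusted p = 0.0207), and with the midbrain covariate it was not called (log2 difference -0.95, adjusted p = 0.0546).

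Mobp, a further myelin protein, had a log2 difference of -0.63 ± 0.23 with groups that overlapped. It was not called without replicates 2 and 4 together (log2 difference -0.087, adjusted p = 0.493), without replicate 2 alone (adjusted p = 0.0822) or without replicate 4 alone (adjusted p = 0.0838), nor with the midbrain covariate (log2 difference -0.79, adjusted p = 0.111), with both compared groups alone in the fit (adjusted p = 0.0821) or after quantile normalization (adjusted p = 0.0516). The gap junction gene Gjb1 had a log2 difference of -1.40 ± 0.25 and was called without replicates 2 and 4 too (log2 difference -0.92, adjusted p = 0.000158). Apod, a lipid carrier, rose by 0.998 ± 0.10 log2 units and was the 1 member that rose.

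Oligodendrocyte progenitor genes went both ways, with 5 of 16 rising and 4 falling, shares near those of all tested genes. In the fit with the midbrain covariate 1 was higher and 3 lower. The growth factor receptor Pdgfra rose by 0.87 ± 0.083 log2 units, the matrix protein Tnr fell by 1.13 on the log2 scale (SE 0.13), and the transcription factor Olig1 did not pass the test (log2 difference 0.006 ± 0.31). Of 19 genes of cholesterol synthesis, on which myelination draws, 0 rose and 8 fell, whereas with replicates 2 and 4 left out, 7 were higher and 5 lower; with the midbrain covariate 1 was higher and 3 lower. Sc5d, an enzyme late in the pathway, fell by 0.44 on the log2 scale (SE 0.083), and was not called with that covariate (log2 difference -0.33, adjusted p = 0.0625). Hmgcs1, early in it, was not called (log2 difference 0.17 ± 0.13) but was higher without those replicates (log2 difference 0.42, adjusted p = 0.00111).

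ATM activates p53 after DNA breaks, and targets of p53 went both ways. Of 17 targets for arrest and feedback 8 rose and 2 fell. Cdkn1a, which encodes the p21 brake on cell division, stood at 4.21, 4.56, 4.17, 4.78 and 4.70 log2 CPM in the controls and at 6.31, 6.41, 5.82, 6.09 and 5.86 log2 CPM in the double mutant. That was a 3.06-fold rise with no overlap (log2 difference 1.61 ± 0.14, limma adjusted p = 1.6e-08), and Cdkn1a was also higher than in the RnaseH2B Nes-cre libraries (log2 difference 1.83) and in those labelled Atm (log2 difference 1.16).

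Zmat3, an RNA-binding protein, Ccng1, a cyclin, and Plk2, a kinase, rose by 0.67 ± 0.08, 0.62 ± 0.076 and 0.63 ± 0.076 log2 units. Sesn1, a stress sensor, fell by 0.41 on the log2 scale (SE 0.07), and Mdm2, the p53 inhibitor that p53 induces, did not pass the test (log2 difference 0.027 ± 0.059, limma adjusted p = 0.704). Of 14 targets for apoptosis 8 rose and 5 fell, but 4 were higher and 4 lower with the midbrain covariate, and 4 and 4 with the stricter filter on low values. That filter tests fewer genes, so that members it leaves out cannot be called. Pmaip1, which encodes the death protein NOXA, went from -1.18 to -0.54 log2 CPM in the controls to 1.18 to 1.73 log2 CPM in the double mutant and rose by 2.30 ± 0.20 log2 units (limma adjusted p = 1.59e-08). Its controls all lay below 1 CPM, the level of the filter, and its double mutants all above it. On the scale of FPKM plus 1 its log2 difference was 0.75. The death receptor Eda2r and the stress protein Trp53inp1 rose by 2.19 ± 0.27 and 0.65 ± 0.085 log2 units, while Bax, a pore-forming effector of apoptosis, fell by 0.56 on the log2 scale (SE 0.086). Of 14 targets for metabolism and repair 4 rose and 3 fell, shares near those of all tested genes.

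DNA repair and replication genes tended lower. Of 29 genes of the DNA damage response, Atm included, 17 fell and 7 rose, with a median of -0.41 and sums of 894 to 951 CPM in the controls and 759 to 778 CPM in the double mutant. Lig3, which seals nicks, Xrcc6, which binds broken ends, and Parp1, which senses breaks, had log2 differences of -0.52 ± 0.045, -0.51 ± 0.047 and -0.34 ± 0.039. Trp53bp1, which steers the choice of repair pathway, rose by 0.21 ± 0.058 log2 units with groups that overlapped, and was not called with the midbrain covariate (log2 difference 0.19, adjusted p = 0.118).

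Of 22 genes of replication and nucleotide pools 12 fell and 5 rose: the helicase subunits Mcm2 and Mcm5 and the clamp Pcna had log2 differences of -1.10 ± 0.14, -1.12 ± 0.085 and -0.52 ± 0.091. The midbrain covariate left 10 of the list lower and 1 higher. Of 14 tested mitosis genes 4 rose and 1 fell, against 1 and 2 after quantile normalization and 2 and 1 with the midbrain covariate. None was called under the stricter filter, which leaves genes of low level untested. The listed mitosis genes together summed to 40.9 to 49.6 CPM in the controls and 42.0 to 53.7 CPM in the double mutant.

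Ube2c, a ubiquitin enzyme of mitosis, and Tnnc2, a troponin of fast muscle, had log2 differences of 4.87 ± 0.24 and 6.14 ± 0.52, but their reads could not be told apart. In the GENCODE vM21 annotation of GRCm38 the genes lie on opposite strands and share 592 of the 800 exon bases of Tnnc2. The double mutant libraries held 3077, 1642, 1592, 2406 and 862 reads of Tnnc2 and 3128, 1644, 1604, 2409 and 878 reads of Ube2c. The controls held 61, 18, 23, 18 and 15 reads of Tnnc2 and 118, 51, 59, 39 and 45 reads of Ube2c. Ube2c exceeded Tnnc2 by 51, 2, 12, 3 and 16 reads in the double mutant and by 57, 33, 36, 21 and 30 reads in the controls, so that the excess was not larger in the double mutant.

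**Figure D5:**
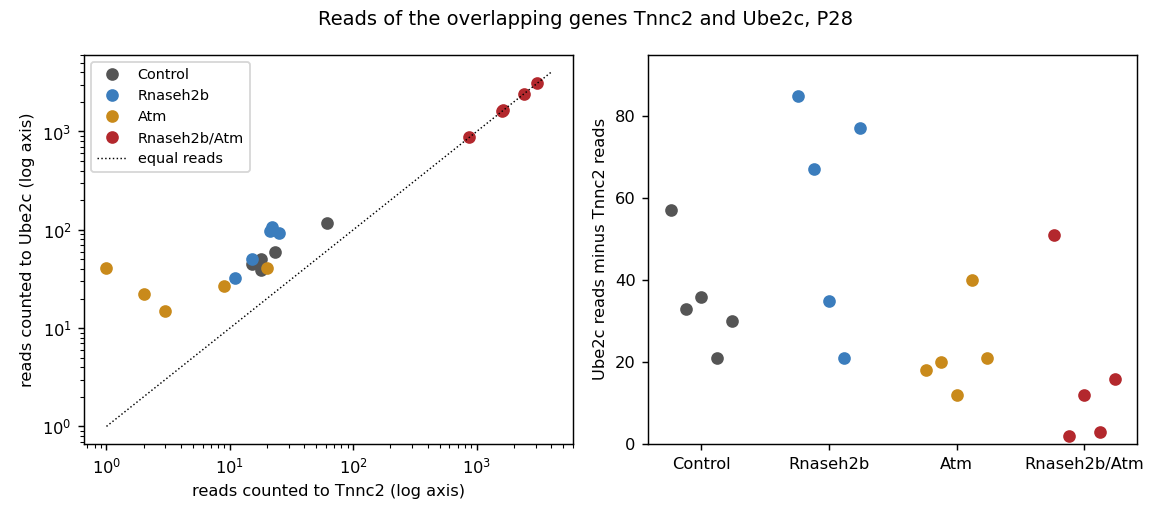
Left, reads counted to Tnnc2 (horizontal) and to Ube2c (vertical) in each of the 20 P28 libraries, on log axes, with a dotted line of equal reads. Right, Ube2c reads minus Tnnc2 reads in each library by group; the 5 double mutants lie close to the line on the left, and on the right at 2 to 51 reads against 21 to 57 in the controls.

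Further rises were in genes of neuronal activity and signalling. Fosb, an early response factor, stood at 0.99, 1.02, -0.092, -0.62 and -1.16 log2 CPM in the controls and at 4.91, 4.08, 3.29, 3.68 and 3.97 log2 CPM in the double mutant. It was 15.5-fold higher with no overlap (log2 difference 3.96 ± 0.45, limma adjusted p = 3.71e-07). Of 15 immediate early genes 6 rose and 3 fell, with Egr1 and Npas4 rising by 1.13 ± 0.18 and 2.18 ± 0.43 log2 units, but the summed level was 251 to 487 CPM in the controls, 435 to 611 CPM in the libraries labelled Atm and 361 to 630 CPM in the double mutant. With the midbrain covariate 3 were higher and 2 lower, and Npas4 was not called (log2 difference 1.495, adjusted p = 0.0901). Rgs2, a brake on G protein signalling, went from 3.66 to 3.89 log2 CPM in the controls to 5.77 to 6.06 log2 CPM in the double mutant and rose by 2.07 ± 0.076 log2 units (limma adjusted p = 1.14e-13). The phosphatase Ppm1e, the secreted protein Dkk3 and the transcription factor Ebf3 rose by 1.59 ± 0.06, 1.90 ± 0.08 and 1.87 ± 0.08 log2 units.

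Antioxidant and stress genes were modestly higher. Of 14 antioxidant genes listed with Nrf2, the regulator of this defence, 9 rose and 1 fell, with a median of 0.30. The list includes Nfe2l2, which encodes Nrf2 itself, and metal-binding Mt genes. With the midbrain covariate 5 of the list were higher and 1 lower. Srxn1, which restores oxidised peroxiredoxins, stood at 6.37, 6.20, 6.37, 6.39 and 6.32 log2 CPM in the controls and at 7.58, 7.54, 7.54, 7.38 and 7.43 log2 CPM in the double mutant and rose by 1.17 ± 0.05 log2 units (limma adjusted p = 1.06e-12). The haem-degrading Hmox1 and the quinone reductase Nqo1 rose by 0.99 ± 0.11 and 0.53 ± 0.09 log2 units. Mt1, a metal-binding protein, rose by 0.55 ± 0.20 log2 units, but was not called without control replicate 2 (adjusted p = 0.06) or double mutant replicate 1 (adjusted p = 0.053), and with the midbrain covariate its difference was near 0 (log2 difference 0.062, adjusted p = 0.883).

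Of 16 genes of the integrated stress response and serine synthesis 9 rose and 1 fell, with the stress regulator Nupr1 and the asparagine synthetase Asns rising by 1.26 ± 0.13 and 0.36 ± 0.048 log2 units. Atf4, the transcription factor of this response, did not pass the test (log2 difference -0.086 ± 0.08). Of 16 clock genes 4 rose and 7 fell, and the clock factors Nr1d1 and Dbp had log2 differences of -0.94 ± 0.10 and -1.17 ± 0.17. With control replicate 2 left out, 4 clock genes were higher and 3 lower, and with the midbrain covariate 1 was higher and 3 lower. Dbp had a log2 difference of -0.018 from the libraries labelled Atm (limma adjusted p = 0.938). All 5 tested red blood cell genes fell, such as Hbb-b1 (log2 difference -0.97 ± 0.29, limma adjusted p = 0.00752), but 2 were called without double mutant replicate 2, 2 without control replicate 3 and 3 without control replicate 1. Without double mutant replicates 2 and 4 together 1 was called and Hbb-b1 was not (log2 difference -0.79, adjusted p = 0.058), and reads of near-identical globin genes may be split between them.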

How the data were processed

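Whole mouse cerebellum gave poly-A mRNA libraries, made from TRIzol RNA with a TruSeq stranded kit per the labels' protocols. The submitters' processing notes name build mm9 and the tools STAR, HTSeq, Trim Galore, limma and BWA; their roles and versions are not given in the sources used here, nor is whether counting used strand. The log2 CPM values were tested as deposited by the authors, and the FPKM values deposited by the authors were a second scale. Whole reads recovered from the log2 CPM values (100% within 0.01 of a whole number) gave the depth, 24.1 to 89.7 M (mega) reads per library.

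Of 19432 genes, 16530 with at least 1 CPM in at least 5 of the 20 P28 libraries were tested with limma 3.58.1 in R 4.3.3 in a single fit of all 4 groups with a variance trend. The fit was run on simulated data with independent noise and few changed genes, a setting unlike these data, in which most genes were called. P values were adjusted by Benjamini-Hochberg over all genes tested, genes were called below 0.05, and only such genes are said to have risen or fallen. Errors are SE of the fitted log2 difference.

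Members and lists were chosen with earlier results of these data known. Of 779 list entries 721 matched by symbol, 16 by a synonym and 42 not at all. Named genes are the engineered genes, the largest changes and smallest p values among genes whose groups did not overlap, and the called or most abundant members of each list; Isg15, Ifit1, Bst2 and Irgm1 were named after their values were seen. Some genes of the lists are not reported here by name. Alternatives covered filters, normalization, the FPKM scale, variance models, covariates and left-out libraries. Figures used Python 3.11.15 and matplotlib 3.10.9.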

Additional observations from a re-analysis of the deposited data

Results flagged for a closer look

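Each value here is of 1 library whose gap to the nearest of the other 4 in its group was large against the range of the group, by Dixon's criterion at 95%. In all 36 of 412 groups of 5 were marked (8.74%), where chance marks about 1 in 20. Control replicate 2 held 18 of the 36.

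Atm at 4.94, Tlr3 at 3.26, Ccng1 at 5.72, Trp53inp1 at 4.74 and Lig3 at 6.11 log2 CPM were the highest of their group in control replicate 2. Grin2a at 2.56, Apoe at 9.04, Lmx1a at -0.45, Olig1 at 5.22, Bax at 4.72 and Atf4 at 6.81 log2 CPM were the lowest of their group in control replicate 2. Cxcl12 at 6.36 log2 CPM was the highest of its group in control replicate 3. Rgs2 at 3.66, Isg15 at -0.33 and H2-Aa at -0.066 log2 CPM were the lowest of their group in control replicate 5. Apoe at 9.25 and Olig1 at 4.69 log2 CPM were the lowest of their group in double mutant replicate 2. Ifi27l1 at 5.07 and Lgals3bp at 6.02 log2 CPM were the highest of their group in double mutant replicate 3. Ccnd2 at 5.29 log2 CPM was the highest of its group in double mutant replicate 4. Gad1 at 9.42 log2 CPM was the lowest of its group in double mutant replicate 4.

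The same was measured for the summed level of gene lists. The lists of p53 targets for arrest and feedback at 520, interferon signalling factors at 503, GABA-A and glycine receptors at 1812 and cholesterol synthesis at 1346 summed CPM were the highest of their group in control replicate 2. Those of activated microglia at 1325, oligodendrocyte progenitors at 351 and Nrf2 antioxidant genes at 822 summed CPM were the lowest of their group in control replicate 2. The list of DNA replication and nucleotide pools at 273 summed CPM was the lowest of its group in control replicate 3. The lists of astrocytes and Bergmann glia at 11260 and glutamate receptors at 2719 summed CPM were the highest of their group in double mutant replicate 2. Those of activated microglia at 1742 and cerebellar nuclei at 923 summed CPM were the lowest of their group in double mutant replicate 2. Antigen presentation at 393 and complement at 258 summed CPM were the highest of their group in double mutant replicate 3. The list of molecular layer and Golgi interneurons at 2903 summed CPM was the lowest of its group in double mutant replicate 4.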

How the results depend on the processing

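The count of called genes, 10506 in the double mutant against control, stayed within 1.5 times in every setting run. It was 11668 with no filter on low values, 8563 with a stricter filter, 10323 with both compared groups alone in the fit, 10503 without a variance trend, 10550 and 10608 on the FPKM scale with 0.1 and 1 added, 10725 after quantile normalization, 10702 with voom and TMM on recovered reads, and 10291 with Xist as a covariate. Leaving out each library in turn gave 9887 to 10822 genes in that comparison, 7490 to 8343 against the RnaseH2B Nes-cre libraries and 9512 to 10272 against those labelled Atm. In settings added after seeing the data it was 8383 with the midbrain covariate and 9983 without double mutant replicates 2 and 4. Planned count tests, edgeR and DESeq2, were not run.

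With the replicate block 10748 genes were called, 8379 against the RnaseH2B Nes-cre libraries and 10230 against those labelled Atm. Deviations of same-numbered double mutant and control libraries correlated at -0.0686, 0.297, -0.203, -0.216 and -0.124, and 1 of 5 correlated best with its own number, so the numbers were not taken as pairs.

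Of 153 named genes called against control, 150 kept their call in every planned setting that tested them, left-out libraries aside. The stricter filter tested only 137 of them. With each library left out 151 kept their call, and in both added settings 130 did. With the midbrain covariate Tacr1 changed sign to a log2 difference of -0.54 (adjusted p = 0.474) and Pax7 to -0.46 (adjusted p = 0.565); Pax7 is itself part of that covariate. Calls of 18 lists moved by over 1.5 times with that covariate and of 11 lists under the stricter filter, which tests fewer genes: there 22 effectors, 11 homeostatic and 7 activated microglia markers, 7 complement genes, 3 cytokine genes, 2 border macrophage markers and 1 unipolar brush cell marker were higher. On the scale of FPKM plus 1, which shrinks differences of low genes, 48 of the 153 had log2 differences smaller by over 1.5 times, all called. Of 19432 genes 16530 passed the filter on low values, and the others were tested only where no filter was set.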
